A study of Mus musculus with 7 samples.

Results

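Late neurons of the mouse dorsal forebrain were compared between stages E18.5 and E15.5 (days of embryonic development), separately within clusters 5, 9 and 8 of the authors' deposited clustering, called labels 5, 9 and 8 here. The members were all cells of these 3 labels in the 2 libraries of each stage, 1085 of the 10261 cells of the series and of the 2292 cells of both stages. Label 5 had 450 cells at E18.5 and 133 at E15.5, label 9 had 222 and 91, and label 8 had 117 and 72. All embryos were of the outbred CD-1 strain from timed pregnancies, with no allele or agent named in the labels. Their dorsal forebrain was taken apart with papain, and single cells were caught in droplets with barcoded beads (Drop-seq), which count each captured RNA molecule by a unique molecular identifier (UMI). Each stage was 1 sample of 2 libraries. The labels give neither the number nor the sex of the embryos, and nothing shows that the 2 libraries came from separate litters. Stages E14.5 (2 samples) and E16.5 (1 sample) served as neighbours on the time axis, and E10.5 and E12.5 entered the fit of label 8.

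Cortical projection neurons are born in the ventricular zone in a fixed order, with deep-layer neurons first and upper-layer neurons later, and use glutamate as their transmitter. Cortical interneurons arise in the ventral forebrain, migrate tangentially into the cortex and use GABA. After migration both kinds extend axons, build synapses, switch receptor and channel subunits, and load vesicles with neuropeptides, while genes of migration and early differentiation decline. A cluster followed over 3 days can therefore hold the same neurons at another age or neurons born at another time, and sums of cells do not tell these apart. Nor do sums alone tell fewer cells with a transcript from less transcript per cell. Numbers of cells with a UMI, which also depend on depth, are given for some genes.

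The label numbers carry no names in the files, so each was compared with marker genes over all its cells at both stages. In label 5, 4 of 11 projection neuron markers were at least 2-fold above the other cells, among them Mef2c (1426 against 229 CPM, that is UMIs of the gene per 1000000 UMIs of the summed cells), Nrgn (67.8 against 16.7 CPM) and Cux2 (82.8 against 32.7 CPM). Among the markers of the same list below the other cells were Fezf2 (66.7 against 206.5 CPM), Bcl11b (146 against 337 CPM) and Sox5 (127 against 212 CPM). Mef2c and Cux2 were also above 2-fold in label 8 (1046 against 510 CPM and 245 against 35.3 CPM). With 0 of 13 interneuron markers above 2-fold, label 5 is called projection neuron-like. In label 8, all 13 interneuron markers were above 2-fold, among them Gad2 (746 against 6.0 CPM), which makes GABA, and the transcription factor Lhx6 (222 against 0.450 CPM), and the label is called interneuron-like. Label 9 had 1 of 11 projection neuron markers and 0 of 13 interneuron markers above 2-fold and keeps its number. Its leading genes included Crym (556 against 19.4 CPM), Grp and the transcription factor Zbtb20 (4356 against 644 CPM), while Mef2c was at 53.5 against 634 CPM. Labels were assigned by the authors over all stages, so the leading genes of a label took part in choosing its cells. Among the genes described here this applies to Tshz2, Nefl and Mef2c in label 5, Crym, Grp and Zbtb20 in label 9, and Adarb2, Gad2 and Lhx6 in label 8.

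After 1 label 8 cell with 34.0% haemoglobin UMIs was set aside, the 1084 cells held 3318596 UMIs. The sums were 1253171 UMIs at E18.5 and 545254 at E15.5 in label 5, 714417 and 462702 in label 9, and 207033 and 136019 in label 8. Cells at E18.5 were shallower, with a median of 2093 UMIs against 2933 at E15.5 in label 5, 2666 against 2872 in label 9, and 1447 against 1544.5 in label 8. Their median mitochondrial share was higher, at 7.65% against 6.66%, 7.69% against 6.54%, and 7.81% against 6.63% in the same order of labels. The part of depth and mitochondrial share in the results was not tested beyond the alternatives of the closing section. Across libraries, 1 cell barcode occurred in 2 of them, in 2 cells of label 5.

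The stages also differed in the sex make-up of their embryos. Xist, the RNA that coats the inactive X chromosome in females, had 940 and 787 CPM in the E18.5 libraries of label 5, against 0 UMIs in both E15.5 libraries. Over all labels, 0 UMIs of 2159066 and of 1323286 in the E15.5 libraries allow at most 1.39 and 2.27 CPM (3 counts), whereas Xist had 830 and 719 CPM in the E18.5 libraries. Eif2s3y, a Y-linked translation factor, was present at both stages, at 58.5 and 66.3 CPM in the E18.5 libraries, against 144 and 145 CPM in the E15.5 libraries. A difference between the stages in total counts and a difference between embryos of unlike sex thus cannot be told apart. Of the E18.5 cells, 214 of 450 in label 5, 98 of 222 in label 9 and 65 of 116 in label 8 carried no Xist UMI, and values in these cells are given beside some results below. Intervals and limits from counts cover counting error only.

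**Figure D1:**
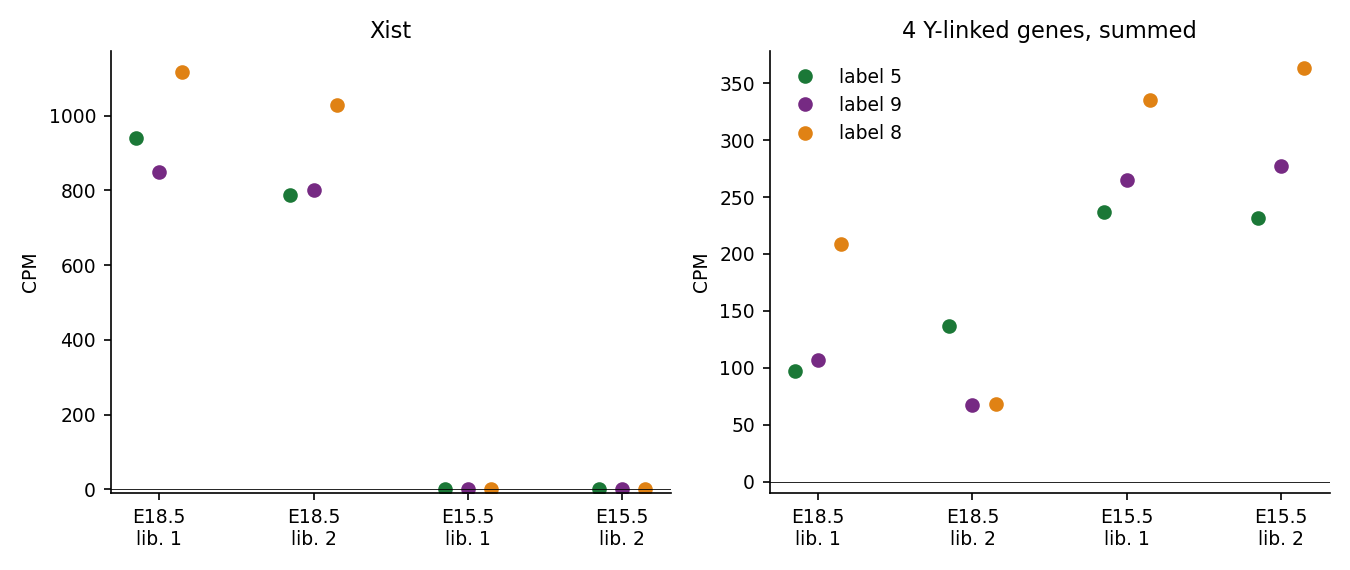
Levels of Xist and of 4 Y-linked genes summed (Ddx3y, Eif2s3y, Kdm5d, Uty), in CPM on linear axes, in each library of E18.5 and E15.5, with 1 point per label. Xist stands between 787 and 1118 CPM in the E18.5 libraries and at 0 in the E15.5 libraries, while the Y-linked sum is above 0 in all 4.

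Changes were called in 2 ways. The test was edgeR's quasi-likelihood test on counts summed per label and sample, with Benjamini-Hochberg adjustment over all genes tested and an adjusted p under 0.05 as the threshold. E18.5 and E15.5 have 1 sample each, so the spread in this fit comes from the pair of E14.5 samples, and the lone samples are assumed to vary like that pair. The make-up of the pair is not certain, since the second library of the first E14.5 sample was assigned to it by name alone. The fit shared this spread across genes in full, so a gene's own E14.5 spread did not set its p-value or SE. "Rose" and "fell" are used for genes that passed the test. Beside the test, a gene was described as higher or lower by 2-fold where the ratio of the stage sums was at least 2, its 95% counting interval excluded 1, and both E18.5 libraries lay on the same side of both E15.5 libraries.

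By the test, 9 of 8466 genes rose (0.106%) and 2 fell (0.0236%) in label 5, 5 of 4287 rose (0.117%) and 3 fell (0.07%) in label 8, and 17 of 6348 rose (0.268%) and 4 fell (0.063%) in label 9. In label 9 the second E14.5 sample had 19 cells, under the planned minimum of 20, so that its test was made with a minimum of 10 cells, chosen after the cell numbers were seen. Xist, and in labels 5 and 9 also its antisense partner Tsix, were among the genes that rose and are not counted further. By the 2-fold description, 175 of 4293 genes were higher (4.08%) and 97 lower (2.26%) in label 5, 176 of 4376 higher (4.02%) and 106 lower (2.42%) in label 9, and 140 of 3633 higher (3.85%) and 115 lower (3.17%) in label 8. Scaled by TMM in place of plain totals, the label 8 split was 169 higher and 86 lower, so that the share of higher calls was 66.3% in place of 54.9%.

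The 2 libraries of a stage differed from each other about as often as the stages did, though at lower depth. Single libraries hold fewer UMIs than stage sums, and the genes tested were not the same. In label 8, 1518 genes were tested between the E15.5 libraries, against 3633 between the stages. Without the condition on libraries, 6.48% of genes passed 2-fold between E18.5 and E15.5 in label 5, while 4.85% did between the 2 E18.5 libraries and 9.01% between the 2 E15.5 libraries. The shares were 6.9%, 7.34% and 9.76% in label 9, and 8.29%, 9.13% and 9.49% in label 8. The 2-fold calls are therefore given as a description, beside the background shares above.

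**Figure D2:**
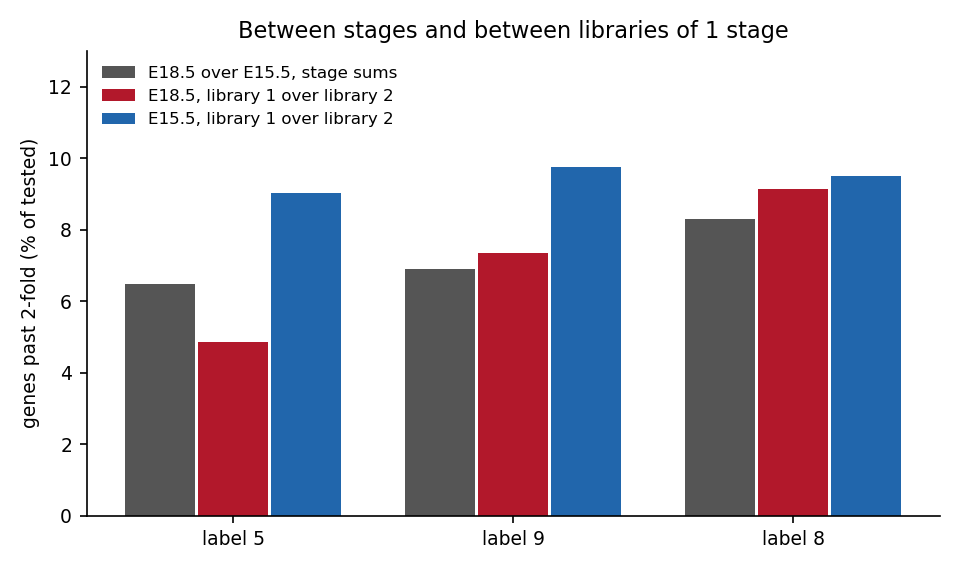
Share of tested genes past 2-fold with a counting interval that excludes 1, in percent, for E18.5 over E15.5 stage sums (grey), for library 1 over library 2 of E18.5 (red) and of E15.5 (blue), within each label. The bars between libraries of 1 stage reach 4.85 to 9.76%, and those between stages 6.48 to 8.29%.

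The named genes past the test in the 3 labels, without Xist and Tsix, came to 28 results, of which those reported are described below. A further 7 genes that rose in label 9 were outside the rule for named genes and are not in these counts. Of the 28, 7 passed edgeR's test whichever of the 4 libraries was left out, among them Cck and Jun in label 5, Pou3f2 and St18 in label 9, and Ccnd2 and Cwc22 in label 8. DESeq2, the other tool run, called 1, 1 and 0 genes in labels 5, 9 and 8, with 17, 16 and 9 at an unadjusted p under 0.05, and kept 0 of the 28. With the 4 libraries as units, edgeR kept 15 of the 28, and with the library number as a block 25. Of the 129 named results past 2-fold or the test, 92 met the 2-fold description in cells without a Xist UMI. Among those that did not were Fezf2 in label 5 (ratio 0.656 in those cells, 0.368 in all cells), Gria4 in label 5 (1.82 and 2.32), Pou3f1 in label 9 (1.81 and 3.61) and Gria3 in label 8 (3.18 and 6.35).

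**Figure D3:**
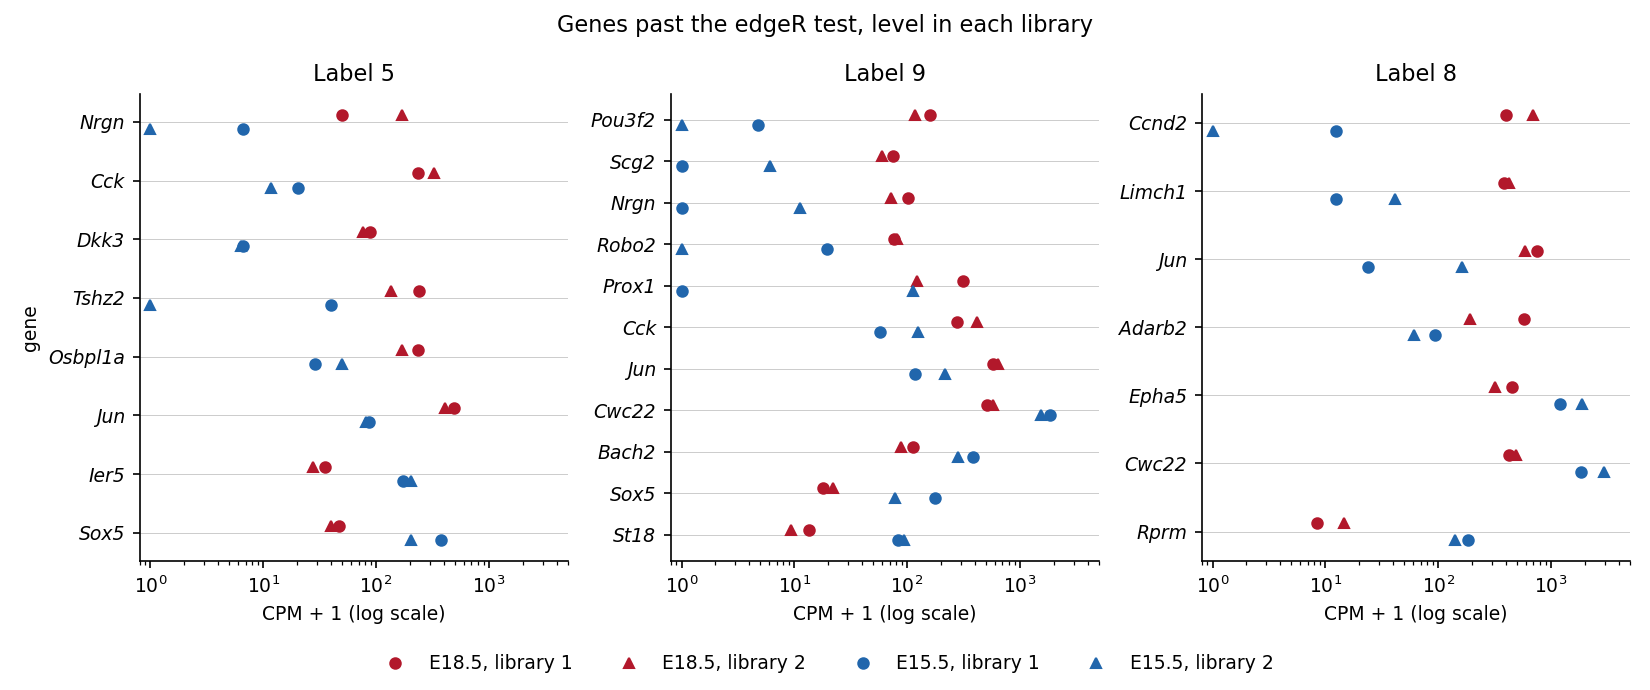
Level of named genes past edgeR's test in each library of E18.5 (red) and E15.5 (blue), as CPM + 1 on a log axis, with circles for library 1 and triangles for library 2 of a stage, in labels 5, 9 and 8. Red and blue symbols do not overlap for any gene shown, with the narrowest gap for Prox1 in label 9 (121.6 against 113 CPM). This follows in part from the choice of genes. Those named by size of change had to have both E18.5 libraries on the same side of both E15.5 libraries.

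In the projection neuron-like label 5, the neuropeptide gene Cck and the postsynaptic gene Nrgn rose, and the deep-layer factor Sox5 fell. Cck, which encodes the neuropeptide cholecystokinin, had 236 and 325 CPM in the E18.5 libraries, against 19.5 and 10.8 CPM in the E15.5 libraries. Its log2 fold change was 4.01 ± 0.70 (SE; adjusted p = 2.86e-05). Before that, Cck stood at 11.8 and 36.6 CPM in the E14.5 samples, and it stood at 50.8 CPM at E16.5, so that the high level was seen in both E18.5 libraries. In cells of the other labels Cck was at 111 CPM at E18.5 and 23.5 CPM at E15.5.

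Nrgn, encoding neurogranin, a calmodulin-binding protein of dendritic spines, had 48.4 and 170 CPM at E18.5, against 5.56 and 0 CPM at E15.5 (log2 fold change 4.61 ± 0.97, adjusted p = 0.00354). In cells of the other labels Nrgn was at 33.9 CPM at E18.5 and 3.40 CPM at E15.5. In label 5 it was at 0 in both E14.5 samples and at 27.5 CPM at E16.5, and its E15.5 sum held 2 UMIs. The higher of the E18.5 libraries owed much of its level to 1 cell, which held 52 of the 83 Nrgn UMIs there. Without that library the log2 fold change was 3.59 and the adjusted p was 0.631.

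Promoter windows of Cck and Nrgn are shown because both genes rose in labels 5 and 9. They are the 250 bases before the annotated start in RefSeq (mouse GRCm38.p6), and capitals mark the E-box CAGATG, a motif of basic helix-loop-helix factors, on either strand. This motif was chosen after the windows were seen. It lies 30 bases before the start of Cck, and 208 bases before that of Nrgn on the reverse strand, and 14.4% of 32851 promoter windows of this length hold it. The windows of Jun, Sox5 and Cwc22, which also passed the test across labels, were searched too and do not hold it.
Cck, chr9:121495695-121495944, minus strand: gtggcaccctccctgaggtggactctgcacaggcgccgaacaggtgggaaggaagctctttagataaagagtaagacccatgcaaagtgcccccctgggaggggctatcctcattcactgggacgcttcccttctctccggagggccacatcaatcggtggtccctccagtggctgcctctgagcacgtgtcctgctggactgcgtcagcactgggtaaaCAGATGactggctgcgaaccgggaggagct
Nrgn, chr9:37552746-37552995, minus strand: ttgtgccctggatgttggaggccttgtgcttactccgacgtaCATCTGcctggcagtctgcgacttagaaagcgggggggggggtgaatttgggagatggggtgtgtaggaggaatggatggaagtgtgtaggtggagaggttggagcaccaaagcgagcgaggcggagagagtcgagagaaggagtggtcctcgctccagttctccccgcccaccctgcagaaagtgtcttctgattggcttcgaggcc

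Sox5, a transcription factor that sets the identity and migration of deep-layer neurons, had 45.8 and 38.8 CPM in the E18.5 libraries, against 378 and 205 CPM in the E15.5 libraries. Its log2 fold change was -2.89 ± 0.58 (adjusted p = 0.0012). A Sox5 UMI was seen in 23 of 284 and 10 of 166 cells at E18.5, against 44 of 89 and 20 of 44 at E15.5. Sox5 stepped down along the whole late series, with 447 and 593 CPM in the E14.5 samples, 319 CPM at E15.5, 155 CPM at E16.5 and 43.1 CPM at E18.5. Cells of the other labels had 59.9 CPM of Sox5 at E18.5 and 329 CPM at E15.5. Its lower level was thus not particular to label 5. The other deep-layer genes did not pass the test. Bcl11b, a factor of subcerebral projection neurons, had 95.5 and 49.1 CPM, against 364 and 188 CPM (adjusted p = 0.169), and Nfib had 709 and 851 CPM, against 2262 and 2056 CPM (adjusted p = 0.747). Both E18.5 libraries lay below both E15.5 libraries for these genes and for Fezf2 and Nfia.

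Jun, an immediate early gene of the AP-1 complex, had 489 and 407 CPM at E18.5, against 86.2 and 80.7 CPM at E15.5 (log2 fold change 2.43 ± 0.56, adjusted p = 0.0187). Its time course was not one-way, since the E14.5 samples were at 647 and 519 CPM and E16.5 at 178 CPM. Cells of the other labels had 861 CPM at E18.5 and 285 CPM at E15.5. Ier5, also an immediate early response gene, fell, with 34.0 and 26.6 CPM at E18.5 and 172 and 205 CPM at E15.5 (log2 fold change -2.55 ± 0.60, adjusted p = 0.0256).

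Jun rose in all 3 labels, and its promoter window is shown for that reason (RefSeq, GRCm38.p6, 250 bases before the start). Capitals mark TGACATCA, an AP-1-like site found 45 bases before the start and held, on either strand, by 2.93% of the 32851 windows. This motif too was chosen after the window was seen. The windows of Cck, Nrgn, Sox5 and Cwc22 do not hold it.
Jun, chr4:95052223-95052472, minus strand: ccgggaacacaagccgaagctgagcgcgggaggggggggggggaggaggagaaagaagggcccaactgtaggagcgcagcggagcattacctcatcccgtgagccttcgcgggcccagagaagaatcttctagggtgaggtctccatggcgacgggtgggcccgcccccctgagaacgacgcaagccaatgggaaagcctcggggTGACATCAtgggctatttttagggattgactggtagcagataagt

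The other genes described that rose in label 5 serve unlike functions. Dkk3, a secreted protein of the Dickkopf family, had 87.7 and 75.7 CPM at E18.5, against 5.56 and 5.38 CPM at E15.5 (log2 fold change 3.85 ± 0.92, adjusted p = 0.0293). Osbpl1a, a sterol-binding protein of endosomes, had 236 and 170 CPM, against 27.8 and 48.4 CPM (2.58 ± 0.63, adjusted p = 0.0342). For both genes the groups of libraries did not overlap, though the E15.5 level of Dkk3 rests on 3 UMIs. In cells with at most 5% mitochondrial UMIs, which were few, the Dkk3 ratio was 1.25, against 15.1 in all cells. That of Osbpl1a was 3.38 there, against 6.02 in all cells. Tshz2, a zinc finger factor and a leading gene of the label, had 238 and 135 CPM, against 38.9 and 0 CPM (2.93 ± 0.69, adjusted p = 0.0256).

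With 1 library left out, several of these genes no longer passed the test, while all fold changes kept their sign. Dkk3 had log2 fold changes of 3.73 without E18.5 library 1 (adjusted p = 0.122), 3.85 without E15.5 library 1 (0.829) and 3.85 without E15.5 library 2 (0.063), about as large as with all libraries. The same held for Ier5, with -2.44 without E18.5 library 2 (adjusted p = 0.0567) and -2.44 without E15.5 library 2 (0.063), and for Osbpl1a, with 2.30 without E18.5 library 1 (0.244) and 2.08 without E15.5 library 1 (0.341). Tshz2 had 2.41 without E18.5 library 1 (adjusted p = 0.376) and 2.36 without E15.5 library 2 (0.198). Without E15.5 library 1, Sox5 had -2.27 (adjusted p = 0.0723), and Nrgn, then at 0 in E15.5, had an adjusted p of 0.289. E18.5 and E15.5 cells with no Xist UMI, on which no fit was made in this label, gave ratios of the same direction and past 2-fold for the 9 genes that passed the test other than Xist and Tsix (Cck 16.9-fold, Nrgn 19.7-fold, Jun 7.04-fold, Sox5 0.17-fold).

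Among the genes of label 5 past 2-fold that did not pass the test were Syt4, a vesicle protein of the synaptotagmin family (965 and 609 CPM at E18.5, against 306 and 371 CPM at E15.5), and Camk2b, a kinase subunit of the postsynapse (406 and 292 CPM, against 203 and 80.7 CPM). Lmo4, a LIM-only regulator of cortical areas and layers, had 716 and 787 CPM, against 239 and 210 CPM (adjusted p = 0.45). Mef2c, an activity-regulated factor and a leading gene of the label, had 1963 and 1386 CPM, against 751 and 629.7 CPM. Sox11, a factor of immature neurons, had 152 and 262 CPM, against 448 and 581 CPM, and Neurod6, a factor of postmitotic projection neurons, had 1504 and 1605 CPM, against 3088 and 3186 CPM. The light neurofilament gene Nefl had 527 and 157 CPM, against 145 and 86.1 CPM, but in cells without a Xist UMI its ratio was 0.949, so that its direction rested on the cells with one. Broad neuronal genes had similar levels: Tubb3, a neuronal tubulin, had 2530 and 2337 CPM, against 2264 and 2266 CPM, and Snap25, a protein of vesicle fusion, had 232 and 164 CPM, against 178 and 156 CPM.

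Marker sums differed between the stages in label 5. The 11 projection neuron markers summed to 4729 to 5023 CPM at E18.5, against 6346 to 6565 CPM at E15.5. The 13 interneuron markers summed to 42.9 to 68.1 CPM in the E18.5 libraries, against 10.8 to 13.9 CPM in the E15.5 libraries, with Npas1 at 0. The 7 astroglial markers summed to 199 to 207 CPM at E18.5, against 91.5 to 122 CPM at E15.5, and the 7 microglial markers to at most 2.62 CPM at E18.5 and 0 at E15.5. Dividing cell markers summed to 70.7 to 81.8 CPM, against 26.9 to 66.8 CPM, Cajal-Retzius markers to 28.8 to 32.7 CPM, against 0 to 11.1 CPM, and apical progenitor markers to 136 to 151 CPM, against 145 to 209 CPM. Their part in the results was not tested.

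In label 9, the upper-layer factor Pou3f2, nearly undetected at E15.5, rose, and Sox5 and St18 fell. Pou3f2, a POU factor of upper-layer neurons and their progenitors, had 160 and 117 CPM in the E18.5 libraries, against 3.73 and 0 CPM in the E15.5 libraries. The log2 fold change was 5.86 ± 0.80 (adjusted p = 7.29e-10). It was at 0 in both E14.5 samples and at 59.9 CPM at E16.5, while cells of the other labels had 323 CPM at E18.5 and 348 CPM at E15.5. Other upper-layer genes past 2-fold in label 9 were Cux1 (56.7 and 46.1 CPM, against 3.73 and 10.3 CPM), Unc5d, a netrin receptor (60.9 and 62.9 CPM, against 14.9 and 5.14 CPM), Pou3f1, Pou3f3 and the growth factor Ptn, none of which passed the test.

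Nrgn rose in label 9 as well, with 101 and 71.3 CPM at E18.5, against 0 and 10.3 CPM at E15.5 (log2 fold change 4.29 ± 0.80, adjusted p = 0.000125). Cck had 277 and 415 CPM, against 56.0 and 123 CPM (1.94 ± 0.45, adjusted p = 0.00773), and Scg2, a secretogranin of dense core vesicles, had 73.5 and 58.7 CPM, against 0 and 5.14 CPM (4.78 ± 1.03, adjusted p = 0.00241). These 3 genes belong to the spine and to peptide secretion. In the E14.5 samples Cck had stood at 154 and 194 CPM and Scg2 at 19.7 and 35.2 CPM, above their E15.5 levels. The E15.5 sum of label 9 held 2 UMIs of Nrgn and 1 of Scg2. Cells of the other labels were higher at E18.5 too. They had 47.0 against 3.31 CPM of Nrgn, 128 against 12.9 CPM of Cck and 41.0 against 15.2 CPM of Scg2. The vesicular glutamate transporter Slc17a6 had 67.2 and 54.5 CPM, against 3.73 and 5.14 CPM, with an adjusted p of 0.125.

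Robo2, a receptor of the repellent Slit proteins, had 75.6 and 79.7 CPM at E18.5, against 18.7 and 0 CPM at E15.5 (log2 fold change 2.80 ± 0.69, adjusted p = 0.0218). Jun had 582 and 642 CPM, against 116 and 216 CPM (1.94 ± 0.42, adjusted p = 0.00279), after 836 and 748 CPM in the E14.5 samples. For Jun, E15.5 was thus the low point of the late series in this label, as it was in label 5.

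Prox1, a homeobox factor of hippocampal granule cells and of some interneurons, had 313 and 122 CPM at E18.5, against 0 and 113 CPM at E15.5 (log2 fold change 2.39 ± 0.49, adjusted p = 0.000951). The libraries of a stage disagreed, since the ratio was 28.0 between the libraries numbered 1 and 1.08 between those numbered 2. Without E15.5 library 1 the log2 fold change was 1.11 (adjusted p = 0.643) and without E18.5 library 1 it was 1.39 (0.439). In cells without a Xist UMI the ratio was 1.87. Adamtsl1, a secreted matrix protein, passed the test with 2.1 and 243 CPM at E18.5, against 7.46 and 10.3 CPM at E15.5, but 57 of its 58 UMIs in E18.5 library 2 came from 1 cell. It was outside the rule for named genes and was singled out after its values were seen. The other genes that rose in label 9 were Atp1b1, a subunit of the sodium pump (204 and 218 CPM, against 52.2 and 56.5 CPM), Cd81, a tetraspanin, Lrrtm2, a synaptic adhesion protein, and 3 gene models without a name, all of them outside that rule too.

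St18, a zinc finger factor of the Myt family, had 12.6 and 8.39 CPM at E18.5, against 82.1 and 92.4 CPM at E15.5 (log2 fold change -2.90 ± 0.61, adjusted p = 0.00129). Sox5 had 16.8 and 21.0 CPM, against 175 and 77.0 CPM (-2.85 ± 0.55, adjusted p = 0.000241), and Bach2, a transcriptional repressor, had 111 and 88.1 CPM, against 381 and 282 CPM (-1.70 ± 0.42, adjusted p = 0.0222). In each case both E18.5 libraries lay well below both E15.5 libraries. Cells of the other labels were lower at E18.5 too. They had 63.0 against 357 CPM of Sox5, 16.4 against 33.8 CPM of St18 and 57.3 against 137 CPM of Bach2. Fezf2, which directs neurons to subcerebral targets, had 149 and 130.0 CPM, against 373 and 318 CPM, and Bcl11b had 206 and 214 CPM, against 448 and 565 CPM, both past 2-fold and not past the test (adjusted p = 0.231 and 0.246).

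Neurofilament genes were lower in label 9 without passing the test. Nefl had 37.8 and 33.5 CPM at E18.5, against 70.9 and 205 CPM at E15.5 (adjusted p = 0.0753), and the medium neurofilament gene Nefm had 105 and 113 CPM, against 175 and 488 CPM (adjusted p = 0.0891). The difference between the labels is tested further on. Rnd2, a GTPase of neuronal migration, had 168 and 164 CPM, against 29.9 and 77.0 CPM (adjusted p = 0.0867), and Rbfox1, a neuronal splicing factor, had 481 and 545 CPM, against 231 and 231 CPM (adjusted p = 0.383).

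Cwc22, a splicing factor whose copy number is known to vary among mice, fell in label 9 with 511 and 579 CPM at E18.5, against 1836 and 1530.3 CPM at E15.5 (log2 fold change -1.67 ± 0.40, adjusted p = 0.012), and in label 8 with 425 and 494 CPM, against 1849 and 2949.7 CPM (-2.30 ± 0.45, adjusted p = 0.000328). Its counts are uncertain, since near-identical copies can share reads. E18.5 cells themselves differed: in label 9 those with a Xist UMI had 821 CPM and those without one 119.5 CPM (346 and 35 UMIs), and in label 8 the values were 883 and 96.3 CPM. The 2 E14.5 samples stood apart too, at 296 and 1214 CPM in label 9, and E16.5 had 92.6 CPM. In cells without a Xist UMI the ratio of E18.5 to E15.5 was 0.07 in label 9 and 0.0428 in label 8. As a ratio, Cwc22 thus differed by more between E18.5 cells with and without a Xist UMI than between E18.5 and E15.5 in total. In CPM it differed by less.

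With 1 library left out, some label 9 genes no longer passed the test, and all kept their sign. Without E15.5 library 1 the log2 fold changes were 3.07 for Nrgn, 1.45 for Jun and -1.47 for Bach2 (adjusted p = 0.159 each), 1.36 for Cck (0.276), 3.61 for Scg2 (0.271) and -2.08 for Sox5 (0.173), and Robo2, then at 0 in E15.5, had an adjusted p of 0.05002. Without E18.5 library 1 they were 3.94 for Nrgn (adjusted p = 0.315), 4.52 for Scg2 (0.292), 2.87 for Robo2 (0.261) and -1.52 for Cwc22 (0.061). Without E18.5 library 2 they were 2.75 for Robo2 (adjusted p = 0.0618), -1.62 for Bach2 (0.0517) and 1.70 for Cck (0.0519), and without E15.5 library 2 Robo2 had 2.04 (0.237). Of these, the values without an E18.5 library were close to those with all libraries, and those of Nrgn, Scg2, Sox5, Cck and Jun without E15.5 library 1 were smaller. In cells without a Xist UMI, where the fit called 0 genes and 114 had an unadjusted p under 0.05, the ratios of the 11 named genes other than Prox1 stayed past 2-fold, with Pou3f2 at 60.0-fold and Sox5 at 0.051-fold. Projection neuron markers in label 9 summed to 3152 to 3548 CPM at E18.5, against 3930 to 4124 CPM at E15.5. Pan-neuronal markers summed to 10420 CPM, against 11480 to 11550 CPM, and interneuron markers to 33.55 to 94.55 CPM, against 0 to 51.35 CPM. Intermediate progenitor markers summed to 197 to 210 CPM at E18.5, against 97.6 to 123 CPM at E15.5, and all 7 microglial markers were at 0. The part of these markers in the results was not tested.

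In the interneuron-like label 8, the cell cycle gene Ccnd2 had the largest tested rise other than Xist. Cyclin D2 drives entry into the cell cycle and is also found in newly made neurons. It had 402 and 686 CPM in the E18.5 libraries, against 11.6 and 0 CPM in the E15.5 libraries (1 UMI in both), with a log2 fold change of 5.94 ± 0.81 (adjusted p = 7.11e-10). The E14.5 samples had 32.7 and 44.5 CPM and E16.5 60.4 CPM, so that the level of E18.5 stood apart from all earlier ones shown. At E18.5 the UMIs came from 14 of 77 and 11 of 39 cells, with at most 13 UMIs in 1 cell. Cells of the other labels had 307 CPM at E18.5 and 279 CPM at E15.5.

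Markers of some other cell types were higher beside it in label 8, and those of others were lower. The 5 markers of dividing cells summed to 127 to 178 CPM at E18.5, against 57.8 to 60.6 CPM at E15.5, with Cdk1 and Ccnb1 at 0. Intermediate progenitor markers summed to 119 to 124 CPM, against 20.2 to 46.2 CPM, with Neurog2 at 0. Cajal-Retzius markers summed to 137 to 186 CPM, against 0 to 34.7 CPM, all from Reln, Ndnf and Calb2. The rest, Trp73, Lhx1 and Lhx5, were at 0. Apical progenitor markers were lower, at 499 to 576 CPM, against 682 to 788 CPM. Endothelial and mural markers were at 0, against 0 to 40.4 CPM. The 13 interneuron markers themselves summed to 5599 to 5814 CPM, against 6364 to 6992 CPM. Their part in the Ccnd2 result was not tested.

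Limch1, an actin-binding protein, had 380 and 425 CPM at E18.5, against 11.6 and 40.4 CPM at E15.5 (log2 fold change 4.13 ± 0.72, adjusted p = 1.34e-05), with 285 CPM at E16.5. In the E18.5 libraries, 22 of its 51 and 15 of its 31 UMIs came from 1 cell each. Jun had 753 and 590 CPM, against 23.1 and 162 CPM (3.25 ± 0.57, adjusted p = 1.34e-05), while its E14.5 samples lay far apart at 1061 and 77.9 CPM. This gap of its own did not set its p-value. Adarb2, an RNA-editing family member that marks interneurons of the caudal ganglionic eminence and is a leading gene of the label, had 574 and 192 CPM, against 92.5 and 60.6 CPM (2.45 ± 0.56, adjusted p = 0.00744). In E18.5 library 1, 39 of its 77 UMIs came from 1 cell.

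Lhx6, which marks interneurons of the medial ganglionic eminence, ran the other way without passing the test, with 134 and 124 CPM at E18.5, against 451 and 202 CPM at E15.5 (adjusted p = 0.405). So did Npas1 (74.5 and 54.9 CPM, against 104 and 242 CPM), the factor Sp9 (134 and 178 CPM, against 301 and 384 CPM) and Ackr3, a chemokine receptor of migrating interneurons (59.6 and 0 CPM, against 116 and 101 CPM). The enzymes of GABA synthesis did not pass 2-fold: Gad2 had 768 and 686 CPM, against 647 and 949.6 CPM, and Gad1 had 358 and 124 CPM, against 370 and 283 CPM. Peptide and vesicle genes of subtypes appeared at E18.5, with Crh at 142 and 68.6 CPM and the vesicle protein Synpr at 119 and 82.3 CPM, against 0 for both genes in both E15.5 libraries. Set against 3 counts in the E15.5 sum, Crh was at least 5.26-fold and Synpr at least 4.82-fold higher, and neither passed the test.

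Rprm, a target of p53 and a marker of corticothalamic neurons, fell in label 8, with 7.45 and 13.7 CPM at E18.5, against 185 and 141 CPM at E15.5 (log2 fold change -3.97 ± 0.87, adjusted p = 0.00399). Epha5, a receptor of the ephrin family, had 455 and 316 CPM, against 1214 and 1879 CPM (-1.82 ± 0.46, adjusted p = 0.0393), after 1494 and 1258 CPM in the E14.5 samples and 933 CPM at E16.5. In cells of the other labels Epha5 had 417 CPM at E18.5 and 479 CPM at E15.5. Cux2, a homeobox factor found in upper-layer neurons and interneurons, had 134 and 82.3 CPM, against 509 and 323 CPM, just short of the threshold (adjusted p = 0.0505). Ptprt, a receptor phosphatase of synapses, had 22.4 and 96.1 CPM, against 277 and 222 CPM (adjusted p = 0.0555).

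Label 8 genes that no longer passed the test with 1 library left out also kept their sign. Without E15.5 library 1 the log2 fold changes were 2.17 for Jun (adjusted p = 0.151), 3.33 for Limch1 (0.0549), 2.91 for Adarb2 (0.079) and -3.65 for Rprm (0.233). Without E18.5 library 1 they were 1.26 for Adarb2 (adjusted p = 0.736), well under its value with all libraries, and -3.49 for Rprm (0.242). Epha5 had -1.67 without E18.5 library 2 (adjusted p = 0.089) and -1.54 without E15.5 library 2 (0.132), and Adarb2 had 2.28 without the last (0.0522). In cells without a Xist UMI all 7 genes stayed past 2-fold, with Ccnd2 at 95.3-fold, Limch1 at 23.0-fold and Rprm at 0.104-fold.

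**Figure D4:**
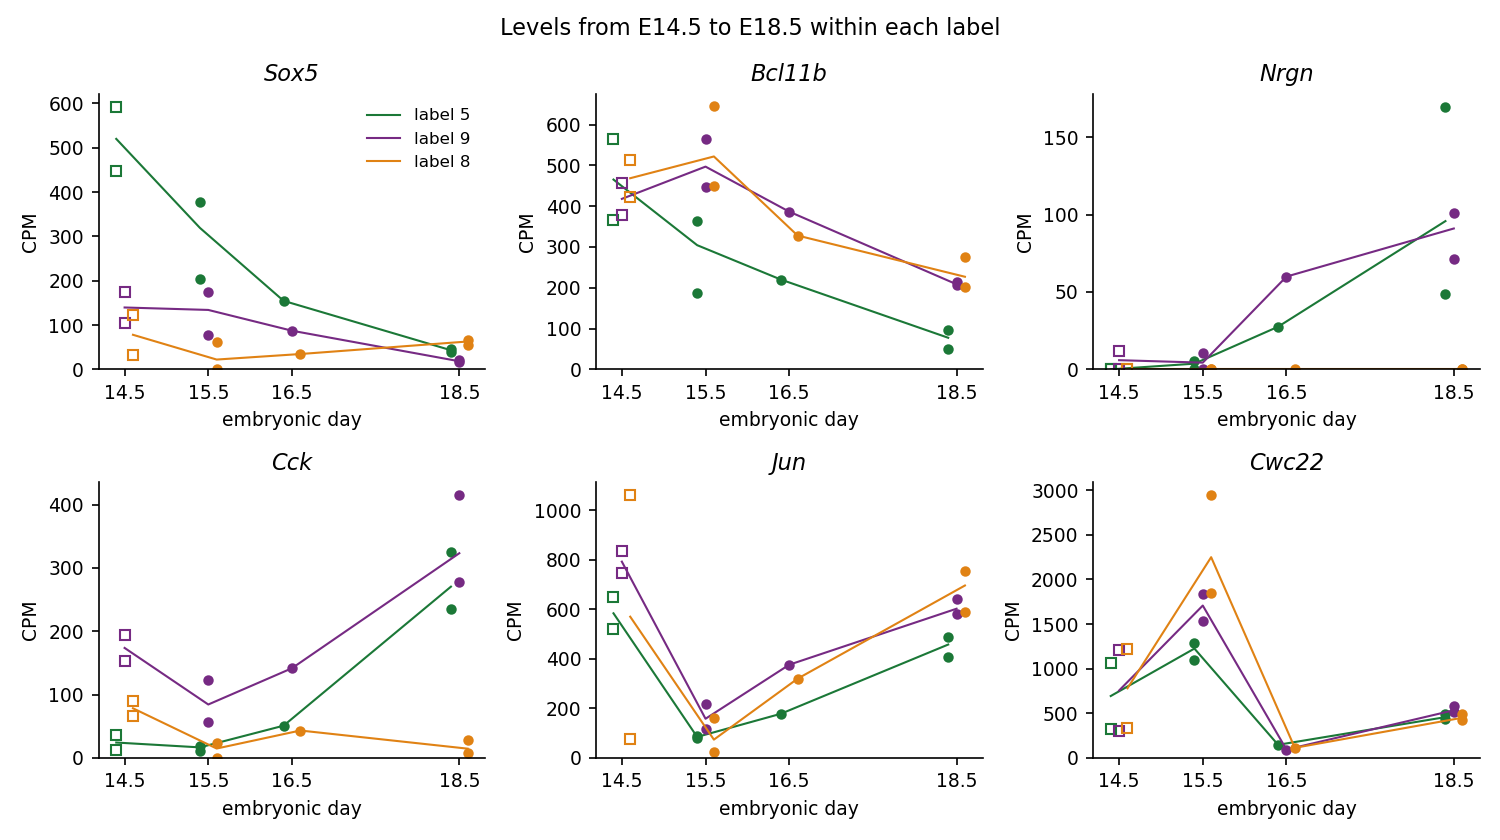
Levels of Sox5, Bcl11b, Nrgn, Cck, Jun and Cwc22 in CPM (linear axes) against embryonic day, from E14.5 to E18.5, within labels 5, 9 and 8. Open squares are the 2 E14.5 samples, filled points the libraries of the other stages, and lines join the stage levels, at E14.5 the mean of the samples. Sox5 in label 5 steps down from 447 and 593 CPM in the E14.5 samples to 45.8 and 38.8 CPM in the E18.5 libraries. The line of Jun is lowest at E15.5 in every label, but in label 8 the second E14.5 sample (77.9 CPM) lies near the E15.5 sum (73.5 CPM).

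Of the 20 gene lists, the counts of genes past 2-fold are set here against the background shares of 4.08, 4.02 and 3.85% higher and 2.26, 2.42 and 3.17% lower in labels 5, 9 and 8, and medians against log2 ratios of -0.017, -0.013 and -0.021 over all genes tested. The 3 labels share their E15.5 and E18.5 libraries, so their values stand side by side and are not independent. Of deep-layer identity genes, 5 of 8 were lower in label 5, with a median log2 ratio of -1.39 and 0 of 8 above 0. The corresponding counts were 3 of 9 in label 9 (median -0.30) and 2 of 4 in label 8 (median -0.34, but 0.40 over the 7 genes in the edgeR fit), and Sox5 in labels 5 and 9 and Rprm in label 8 passed the test. Of upper-layer identity genes, 6 of 10 were higher and 0 lower in label 9 (median 1.56), of which Pou3f2 passed the test. In label 5, 3 of 13 were higher and 1, Rorb, was lower (median 0.26), and in label 8, 1 of 6 was higher and 2, Cux1 and Cux2, were lower (median 0.18).

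Immediate early genes were higher in 5 of 10 cases in label 5 (median 1.66), 4 of 8 in label 9 (median 0.72) and 4 of 6 in label 8 (median 1.58). Egr1, a zinc finger factor induced by activity, had 114 and 104 CPM at E18.5, against 13.9 and 16.1 CPM at E15.5 in label 5 (adjusted p = 0.106), and Fos had 206 and 147 CPM, against 82.1 and 56.5 CPM in label 9 (adjusted p = 0.331). Ier5 in label 5 and Bdnf in label 9 were lower. In cells of the other labels Egr1 had 377 CPM at E18.5 and 56.9 CPM at E15.5, seen from label 5. Of heat shock and stress genes, 0 of 8, 0 of 9 and 0 of 9 passed 2-fold in labels 5, 9 and 8.

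Of the synaptic lists, the glutamate receptor list had the most genes past 2-fold. Glutamate receptor and postsynaptic genes were higher in 5 of 15 cases in label 5, 3 of 14 in label 9 and 2 of 13 in label 8, and 0 were lower in each, with medians of 0.37, 0.010 and -0.076. Nrgn in labels 5 and 9 passed the test. Among the higher genes were Gria4 and Grik2 in labels 5 and 9, and Gria3 (164 and 96.1 CPM, against 23.1 and 20.2 CPM) and Grik1 in label 8. Of synaptic vesicle genes, 3 of 16, 1 of 15 and 1 of 12 were higher and 0 lower, and of GABA signalling and chloride genes 2 of 6, 0 of 8 and 1 of 10 were higher and 0 lower. The vesicle counts of labels 9 and 8 and the GABA counts of those labels are near the background. Gabra2, a GABA-A receptor subunit, had 406 and 323 CPM, against 189 and 129 CPM in label 5, and 119 and 82.3 CPM, against 11.6 and 40.4 CPM in label 8. Most members did not pass 2-fold: Gria2, the main AMPA receptor subunit, had 1758 and 2043 CPM, against 1981 and 1981 CPM in label 5. Low at both stages were Slc17a7, the adult cortical glutamate transporter, at 2.62 and 4.09 CPM at E18.5, against 5.56 and 10.8 CPM at E15.5, and the chloride transporter Slc12a5 at 3.93 and 2.04 CPM, against 13.9 and 0 CPM, in label 5.

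Peptide and dense core vesicle genes were higher in 2 of 7, 3 of 9 and 1 of 9 cases in labels 5, 9 and 8, with 0 lower. Axon guidance and adhesion genes went both ways, with 6 higher and 2 lower of 27 in label 5, 4 and 3 of 26 in label 9, and 3 and 2 of 17 in label 8. In label 5 the adhesion genes Lsamp (168 and 121 CPM, against 55.6 and 10.8 CPM) and Chl1 (581 and 485 CPM, against 211 and 161 CPM) were higher, and Cdh13 and Nrp2 lower. Of migration and immature neuron genes, 0 were higher and 2 lower of 25 in label 5, 1 and 1 of 28 in label 9, and 0 and 2 of 23 in label 8. Dcx, the microtubule protein of migrating neurons, had 839 and 662 CPM, against 743 and 614 CPM in label 5. Voltage-gated and potassium channel genes gave 1 higher and 1 lower of 8 in label 5 (Kcnd2 and Kcnq3), 1 and 1 of 11 in label 9, and 0 of 7 in label 8. Neurofilament, microtubule and transport genes gave 1 higher of 20, 3 lower of 20 and 1 higher of 16.

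Cholesterol synthesis genes were higher in 4 of 14 cases in label 5, and in 0 of 11 and 0 of 7 in labels 9 and 8. Hmgcs1, an early enzyme of the pathway, had 615 and 593 CPM at E18.5, against 256 and 361 CPM at E15.5 in label 5, and Insig1, a sterol sensor, had 90.3 and 112 CPM, against 33.4 and 32.3 CPM. Interneuron identity genes were higher in 3 and lower in 4 of 28 cases in label 8, higher in 1 of 4 in label 5 and in 2 of 6 in label 9. Calcium and cyclic nucleotide signalling genes gave 1 higher of 16 in label 5, 0 of 14 in label 9 and 1 lower of 10 in label 8. Chromatin and DNA methylation genes gave 2 higher and 1 lower of 19, 2 higher of 17 and 0 of 18, and neuronal RNA-binding and splicing genes 0 of 16, 1 higher of 16 and 0 of 14. Energy metabolism gave no such gene: of 50 nuclear genes of oxidative phosphorylation, of 7 mitochondrial ones, and of 9, 8 and 5 glycolysis genes, 0 passed 2-fold in any of the 3 labels.

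**Figure D5:**
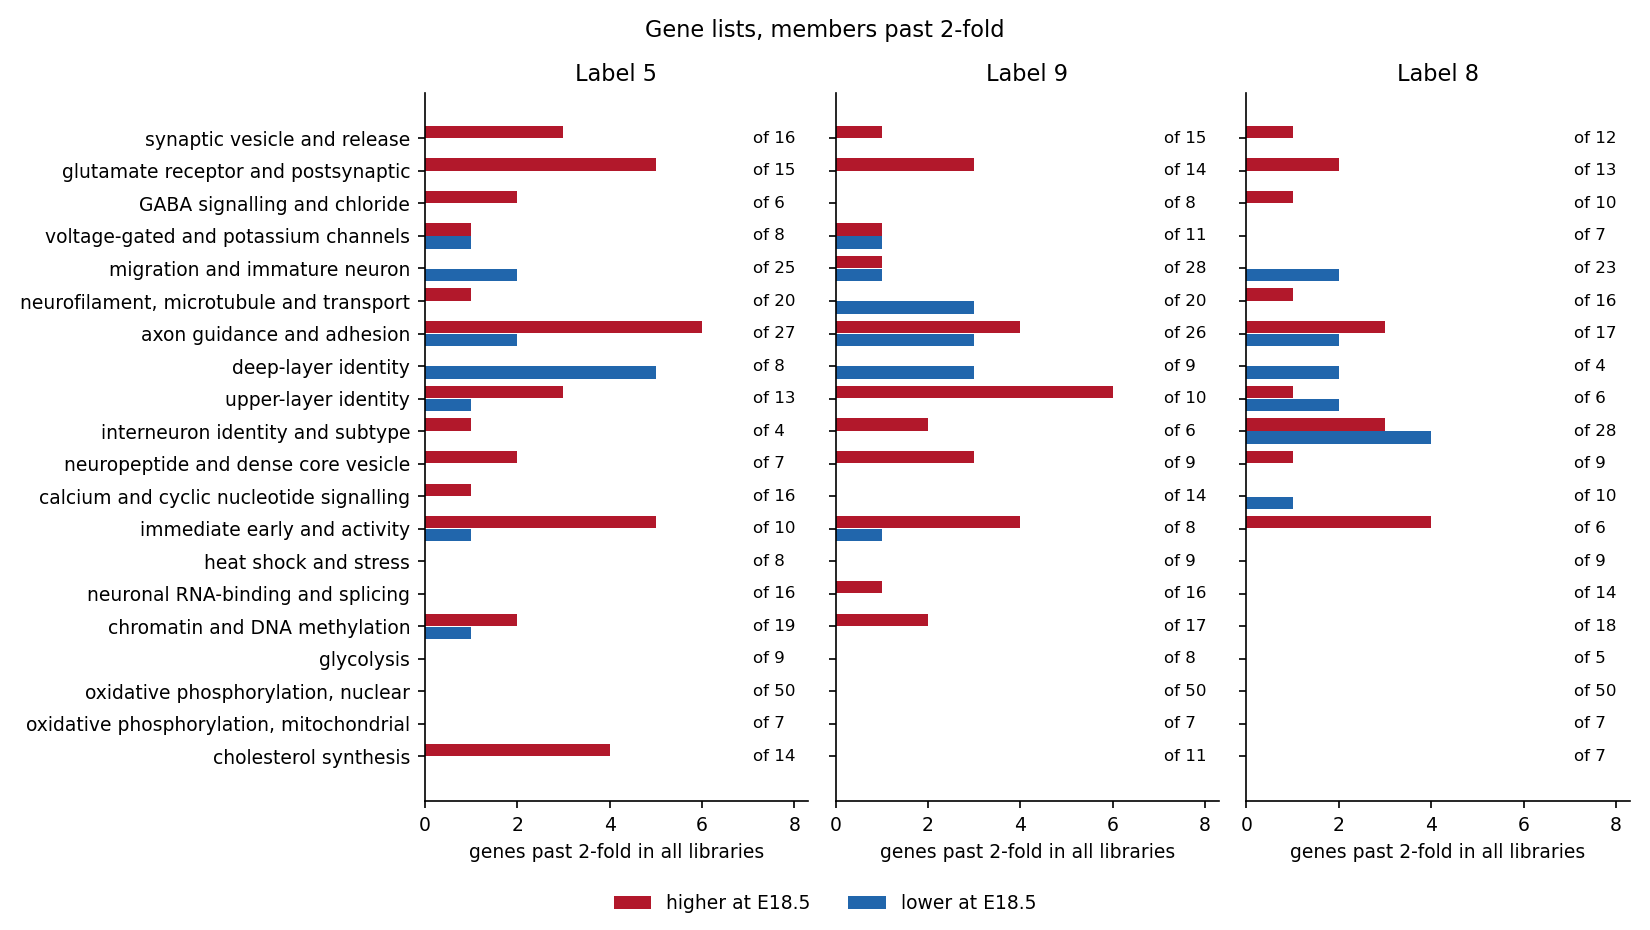
Number of genes of each list past 2-fold in all libraries, higher (red) or lower (blue) at E18.5 than at E15.5, in labels 5, 9 and 8, with the number tested beside each row. Deep-layer genes have bars in the lower direction alone in all 3 labels, upper-layer genes reach 6 of 10 higher in label 9, and the metabolic lists other than cholesterol synthesis have no bar.

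The change between stages was compared between labels in 1 edgeR fit with sample as a block, on samples with at least 10 cells of each label, a minimum chosen after the cell numbers were seen. For label 9 minus label 5, 5 of 6568 genes differed upward (0.0761%) and 5 downward (0.0761%), and for label 8 minus label 5, 7 upward (0.107%) and 5 downward (0.0761%). DESeq2 called 0 in both comparisons, with 10 and 35 genes at an unadjusted p under 0.05, against 212 and 332 in edgeR. Pou3f2 stood at 160 and 117 CPM at E18.5, against 3.73 and 0 CPM at E15.5 in label 9, and at 378 and 458 CPM, against 437 and 554 CPM in label 5, a difference of changes of 6.05 ± 0.88 on the log2 scale (adjusted p = 4.01e-07). Lmo4 had 746 and 604 CPM, against 1008 and 852 CPM in label 9, and 716 and 787 CPM, against 239 and 210 CPM in label 5 (-2.15 ± 0.41, adjusted p = 0.00102). These 2 differences held whichever of the 4 libraries was left out. For Nefl, lower in label 9 and higher in label 5, the difference was -3.43 ± 0.58 (adjusted p = 5.03e-05), and without E18.5 library 1 it was -2.25 (adjusted p = 0.595) and without E15.5 library 2 -2.37 (adjusted p = 0.186).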

How the data were processed

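The authors deposited 1 table of UMI counts per gene and cell and 1 table that gives each cell its library and cluster. Cells were made into libraries by the Drop-Seq protocol, version 3.1, per the labels' protocols. Genome build mm10 and Seurat 3.1.5 are named per the submitters' processing notes. The aligner, annotation and strand setting are not given in the sources used here. No count was altered. Counts were summed per label and sample (edgeR) or library (2-fold description). Depth and counting intervals stand with the results.

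edgeR 4.0.16 (R 4.3.3) was fitted with 1 coefficient per stage on samples of at least 20 cells, with its low-count filter and TMM scaling. The call threshold was an adjusted p of 0.05. All spread came from the E14.5 pair. In the stage fits this spread was shared across genes in full (infinite prior degrees of freedom). A gene's own E14.5 spread thus did not set its p-value or SE. P-values measure only the shared spread between those samples, which may be technical. The 2-fold description used library totals, at least 50 CPM in a stage and 20 UMIs in both together, and 3 counts in place of 0. No ratio was formed where both stages had 3 or fewer counts, a rule added after seeing the data. DESeq2 1.42.0 was an alternative. Doublets, called with scanpy 1.11.5 (64 of 6421 cells, 9 of them members), stayed in. The scripts were tested on simulated data.

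Named genes were up to 6 per direction and label by size of change or counting interval, a fixed set of maturation genes, up to 4 per direction and list, and up to 5 per direction of each difference between labels. Those by size of change or counting interval had also to meet the 2-fold description, so that their libraries could not overlap between stages. The members and the 20 lists were chosen with earlier results of these data known. Library numbers pair no samples. A few genes are not reported here.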

Additional observations from a re-analysis of the deposited data

Results flagged for a closer look

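The change between E18.5 and E15.5 differed between labels, by the test of the difference itself in edgeR, in the 19 cases given here as differences on the log2 scale. All rest on fits with the sample as a block and the spread between few samples, and DESeq2 gave an adjusted p of 0.9999 for each. The labels share their libraries.

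For label 9 minus label 5, the difference was positive for Pou3f2 (6.05), Robo2 (3.15 ± 0.69, adjusted p = 0.0107), Cited2, a transcriptional coregulator (3.0 ± 0.71, adjusted p = 0.0282), the gene model Gm17750 (1.95) and Nfib (1.36 ± 0.34, adjusted p = 0.0465). Robo2 was at 75.6 and 79.7 CPM at E18.5, against 18.7 and 0 CPM at E15.5 in label 9, and at 510 and 419 CPM, against 565 and 716 CPM in label 5. Nfib was at 2694 and 2499 CPM, against 3068 and 2665 CPM in label 9, so that its lower level at E18.5 in label 5 was not matched there. The difference was negative for Nefl (-3.43), Osbpl1a (-3.09 ± 0.69, adjusted p = 0.0107), Hook1, a microtubule adaptor (-2.92), and Lmo4 (-2.15).

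For label 8 minus label 5, the difference was positive for Ccnd2 (6.01 ± 1.27, adjusted p = 0.00576), Sox5 (4.38 ± 0.95, adjusted p = 0.0073), Abracl (4.19), Limch1 (3.59 ± 0.75, adjusted p = 0.00576) and Ppp2r2b, a phosphatase subunit (2.80). Ccnd2 in label 5 was at 13.1 and 22.5 CPM at E18.5, against 16.7 and 16.1 CPM at E15.5. Sox5 in label 8 was at 67.1 and 54.9 CPM, against 0 and 60.6 CPM, where the groups of libraries overlap. It was negative for Neto1, an auxiliary subunit of glutamate receptors (-6.82), Rprm (-3.90), Osbpl1a (-3.81), Eif1b (-1.99) and Epha5 (-1.78 ± 0.42, adjusted p = 0.0218). Neto1 was at 0 in both E15.5 libraries of label 5, so that its fitted value is no measure of size.

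Of the 19 differences, Pou3f2 and Lmo4 (label 9 minus label 5) kept their call without each of the 4 libraries. Without E18.5 library 1, E18.5 library 2, E15.5 library 1 and E15.5 library 2, 9, 1, 10 and 9 calls were lost.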

How the results depend on the processing

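In label 5, where edgeR called 11 genes, it called 43 as a slope on embryonic day, 33 with the 4 libraries as units, 271 with the library number as a replicate block, 2 in cells with at most 5% mitochondrial UMIs and 1 in thinned sums, and DESeq2 called 1. In label 9 (21 genes) the counts under the same alternatives were 56, 3, 41, 0 (322 at an unadjusted p under 0.05) and 0 (97), with 0 (114) in cells without a Xist UMI, 1 by DESeq2 and 14 to 32 without each library. In label 8 (8 genes) they were 43 by slope, 4 in thinned sums, 0 by DESeq2 (9 at an unadjusted p under 0.05) and 5 to 12 without each library. Differences of label 9 minus label 5 (10 genes) numbered 0 by DESeq2, 2 in low-mitochondrial cells and 4 to 11 without each library, and of label 8 minus label 5 (12 genes) 0, 3 and 7 to 17. Genes past 2-fold in label 5 (272) numbered 69 at 3-fold, 104 at 100 CPM, 640 with no minimum, 441 and 422 in libraries 1 and 2 alone and 326 to 529 without each library. In label 9 (282) they numbered 73, 93, 535, 524 in libraries 1 alone and 399 to 491 without each library. In label 8 (255) they numbered 122 at 3-fold, 385 without the interval, 46 in low-mitochondrial cells, 141 thinned, 107 in libraries 2 alone and 211 to 326 without each library.

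Signs reversed in 12 cases, of which 11 were in low-mitochondrial cells: the differences of Nefl (5.98) and Limch1 (-5.07), and the log2 ratios of Chl1 (-0.0097), Fezf2 (0.59), Gabra2 (-0.21), Gabra5 (-0.17), Ncald (-0.83), Nefl (-1.13) and Tshz2 (-0.052) in label 5 and of Ptprt (0.070) and Rprm (0.070) in label 8. The label 8 pair are no measured reversals: 12 E18.5 cells remained in library 1 and 0 in library 2, with 0 UMIs of either gene, set to 3 counts, against 4 UMIs at E15.5. The label 5 ratios in low-mitochondrial cells rest on few UMIs too, from 3 to 45 at E18.5 and 4 to 34 at E15.5. Neither reversed difference passed the test there. The reversal outside low-mitochondrial cells was Nefl in label 5, in cells without a Xist UMI (-0.075). The cause was not tested. Of 432 alternatives to the 28 edgeR calls, 293 kept and 139 lost the call, and of 2263 to the 129 named 2-fold calls, 1813 kept and 440 lost it. No paired analysis was possible because E18.5 and E15.5 share no sample pairs: the block above uses library numbers alone. The second library of the first E14.5 sample was assigned by its name. Without it, 12 genes rose and 3 fell in label 9, and 5 rose and 2 fell in label 8. Of 19 named edgeR calls fitted in this way, 15 were kept. Not run in edgeR were label 5 without that library, and label 5 without Xist-bearing cells. Not run either were label 8 (edgeR) and label 9 (2-fold) in low-mitochondrial cells. Leaving out an E14.5 sample was not run, since it leaves no residual degree of freedom. Depth limits label 8 most, with 136019 UMIs at E15.5.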

Other observations

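Cwc22 was split by Xist in all labels together as in each of the 3. E18.5 cells with a Xist UMI had 712 CPM (1322 UMIs in 607 cells) and those without one 99.6 CPM (166 UMIs in 669 cells), against 1777 CPM in the 1014 E15.5 cells, none of which had a Xist UMI. In label 5 the values were 686 and 108 CPM, against 1225 CPM. Cells with a Xist UMI were deeper, with a median of 2210 UMIs against 1858 in those without one. The labels do not tie cells to embryos, and a cause was not tested.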
